A study of Mus musculus with 2 samples.

Results

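Integrins are cell-surface receptors built from 1 alpha and 1 beta subunit, and the transcripts of 10 subunit genes were described here in microglia-rich single-cell libraries: Itgam, Itgax, Itgal, Itgb2, Itgb1, Itgb5, Itgav, Itga4, Itga6 and Itga9. The 10 genes were taken by name, with earlier results of these data known, from 26 integrin subunit genes and 31053 genes in the count matrix. All 10 were found and had at least 20 unique molecular identifiers (UMIs, each marking 1 captured transcript). Only cells showing 200 or more genes and no more than 20% mitochondrial UMIs were used, which left 3406 cells in library 1 and 1922 in library 2.

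The mice were 10-week-old wild-type C57BL/6J females. One sample was a pool of cells from 5 healthy mice and the other a pool from 5 mice with experimental autoimmune encephalomyelitis (EAE), an induced autoimmune inflammation of the central nervous system; no other allele or agent is named in the labels. Cells came from the cribriform plate, the perforated bone under the olfactory bulbs, and the dissected tissue also took in olfactory bulb and nasal mucosa. The sort kept live podoplanin-positive, CD31-positive, CD45-negative cells, a gate meant for lymphatic endothelium. Barcodes end in 1 or 2, and which ending belongs to which pool is not stated in the labels or files. The endings are therefore called library 1 and library 2, no disease effect was estimated, and with 1 library a side no difference has a replicate check.

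The labelled cell type was nearly absent and microglia, the resident macrophages of the brain, made up most cells. The 6 lymphatic endothelium markers added up to 27.3 UMIs per 1000000 of the library's UMIs (CPM) in library 1 and 6.85 in library 2, against 17504 and 9177 CPM for 7 microglia markers. Clusters with a microglia-like profile held 2658 cells (78.0%) of library 1 and 1714 cells (89.2%) of library 2. A further 490 cells of library 1 (14.4%) formed a cluster that the naming rule left unnamed, although its 7 microglia markers summed to 18623 CPM, so the 2 shares give no order between the libraries. The gate excluded CD45, a protein that microglia carry at low level, and how these cells passed it was not tested. The median cell held 7334 UMIs in library 1 and 9783 in library 2, from 25766058 and 20282053 UMIs in all. In all, 7 barcode sequences occurred among the kept cells of both libraries, and leaving those cells out changed no call on the 10 genes.

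In integrin biology the alpha chain sets most of the choice of ligand and the beta chain carries the tail that talin and kindlin bind when the receptor is switched on. Itgb2 encodes the beta-2 chain of leukocyte integrins, which pairs with the products of Itgam (CD11b, complement receptor 3), Itgax (CD11c, complement receptor 4) and Itgal (CD11a, with which it forms LFA-1, the receptor for ICAM proteins). Itgb1 encodes beta-1, the partner of alpha-4 (VLA-4, a receptor for VCAM-1 and fibronectin), alpha-6 (a laminin receptor), alpha-9 and alpha-v. Itgb5 encodes beta-5, which pairs with alpha-v and binds vitronectin. CD11b and beta-5 are well known on resting microglia, and CD11c marks subsets of activated microglia.

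Itgam and Itgax are neighbours on mouse chromosome 7 that nonetheless had different patterns between the libraries, so the 250 bases before each transcript start are shown. Both lie on the plus strand of GRCm38.p6 (RefSeq), Itgam at chr7:128062390-128062639 and Itgax at chr7:128129300-128129549. Capitals mark exact matches, on either strand, to GAGGAAG, the core of a site for the macrophage factor PU.1, or to GGAAGT, an ETS-family core.
Itgam: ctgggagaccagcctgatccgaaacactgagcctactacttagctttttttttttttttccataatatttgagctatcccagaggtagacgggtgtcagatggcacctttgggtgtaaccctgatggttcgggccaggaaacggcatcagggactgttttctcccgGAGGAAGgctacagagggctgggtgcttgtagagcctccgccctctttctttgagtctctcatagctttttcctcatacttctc
Itgax: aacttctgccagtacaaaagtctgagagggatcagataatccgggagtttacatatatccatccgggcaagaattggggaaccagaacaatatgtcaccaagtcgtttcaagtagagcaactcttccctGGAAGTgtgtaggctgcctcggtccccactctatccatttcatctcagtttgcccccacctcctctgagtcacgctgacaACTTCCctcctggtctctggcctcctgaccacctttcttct
The Itgam window held 1 GAGGAAG match, on the sense strand and starting 84 bases before the transcript start, and no GGAAGT. The Itgax window held 2 GGAAGT matches, 1 sense match starting 121 bases before the start and 1 on the antisense strand starting 41 bases before it, and no GAGGAAG. Of 27025 RefSeq promoters of this length, 20% held GGAAGT and 10.4% held GAGGAAG; the 2 motifs share the letters GGAAG and can overlap. Promoter entries were matched for 7 of the 10 genes, with none for Itgal, Itgb2 and Itga6. Of the other 5, Itgav held both motifs and Itgb1, Itgb5, Itga4 and Itga9 held neither. No window of the 7 held TATAAA (13% of promoters), the interferon-gamma-type pattern TTCNNNGAA (7.18%) or the core pattern of an interferon-stimulated response element (3.04%). These matches describe letters and were not tested as sites.

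Between the libraries the leukocyte alpha chains Itgax and Itgal differed most, while Itgam, their sister gene, was nearly level. Of the 10 genes, 3 (Itgax, Itgal and Itga4) were at least 2-fold higher in library 2, against 14.2% of the 13891 genes with at least 20 UMIs, and 1 (Itga9) was at least 2-fold lower, against 8.37%. The median log2 ratio of library 2 over library 1, with 10 CPM added, was -0.10 for the 10 genes and 0.01 for all genes tested. The 10 genes together made 1979 CPM in library 1 and 1804 in library 2. Intervals below are exact 95% intervals for counting error and say nothing of the spread between mice.

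Itgam stood at 348 CPM (341 to 356) in library 1 and 318 CPM (310 to 326) in library 2, a ratio of 0.913 (0.885 to 0.943). It was detected in 84.9% and 84.5% of cells. The gap was beyond counting error and small.

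Itgax stood at 8.42 CPM (7.34 to 9.62) in library 1 and 61.8 CPM (58.5 to 65.4) in library 2, a 7.34-fold difference (6.35 to 8.52). Its UMIs lay in 168 of 3406 cells (4.93%) and 722 of 1922 cells (37.6%). With every cell thinned to 1000 UMIs, which removes the gap in depth and leaves out 87 and 15 shallower cells, the shares were 0.633% and 5.14%. The difference was therefore present in level and in detection at equal depth.

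Itgal had 25 UMIs in 19 cells of library 1 and 753 UMIs in 506 cells of library 2. This made 0.970 CPM (0.628 to 1.43) against 37.1 CPM (34.5 to 39.9), a 38.3-fold difference (25.7 to 59.5). At 1000 UMIs a cell, 0.0603% of library 1 cells and 3.51% of library 2 cells held a UMI, and on all UMIs 0.558% and 26.3%. Of the 10 genes, this was the largest ratio. T and NK cells are a usual source of this gene, and their 7 markers summed to 0.699 and 1.77 CPM. Among the 19 and 506 cells holding Itgal, none of library 1 and 1 of library 2 carried 2 or more of these markers. That 1 cell held 2 of the 753 Itgal UMIs. In cells with at least 5 of the 7 microglia markers Itgal stood at 0.678 CPM in library 1 and 37.3 CPM in library 2.

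Itgb2, the shared beta partner, stood at 184 CPM (179 to 189) in library 1 and 318 CPM (311 to 326) in library 2, 1.73-fold higher (1.67 to 1.80). It was detected in 69.2% and 87.7% of cells, and in 18.2% and 26.5% at 1000 UMIs. This difference lay beyond counting error and under the 2-fold rule.

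Itgb1 stood at 173 CPM (168 to 178) in library 1 and 115 CPM (110 to 120) in library 2, 1.51-fold lower (1.43 to 1.59). Itgb5 stood at 1054 CPM (1042 to 1067) and 776 CPM (764 to 788), 1.36-fold lower (1.33 to 1.39). Both beta chains were thus lower in library 2, where Itgb2 was higher. At 1000 UMIs, Itgb1 was seen in 15.7% and 9.96% of cells and Itgb5 in 63.9% and 51.3%, while the unthinned shares of 66.9% and 64.7% for Itgb1 and 95.9% and 94.1% for Itgb5 differed less.

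Itgav, the alpha-v chain, stood at 55.1 CPM (52.2 to 58.0) in library 1 and 51.7 CPM (48.6 to 55.0) in library 2, and the interval of the ratio, 0.866 to 1.02, included 1. Itga6, the laminin-receptor chain, stood at 122 CPM (118 to 126) and 110 CPM (105 to 115), a ratio of 0.902 (0.854 to 0.952). For Itga6 the shares of cells ran in opposite directions, 53.8% and 58.8% on all UMIs but 11.8% and 8.97% at 1000 UMIs.

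Itga9, whose product binds tenascin-C and VCAM-1 among others, stood at 30.3 CPM (28.2 to 32.5) in library 1 and 10.9 CPM (9.51 to 12.4) in library 2, 2.78-fold lower (2.39 to 3.25). It was detected in 19.3% and 10.5% of cells, and in 3.04% and 1.42% at 1000 UMIs. Several noncoding genes overlap Itga9 in the annotation and whether the counting used strand is not given, so its counts may include theirs.

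Itga4 was sparse, with 63 UMIs in 50 cells of library 1 and 114 UMIs in 99 cells of library 2. Its level was 2.44 CPM (1.88 to 3.13) and 5.62 CPM (4.64 to 6.75), 2.30-fold higher (1.67 to 3.18), but the ratio fell below 2 when cells were averaged singly. At 1000 UMIs the shares of cells were 0.301% and 0.472%, with overlapping intervals. Itga4 overlaps the gene Cerkl, which carries the same limit as above.

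**Figure D1:**
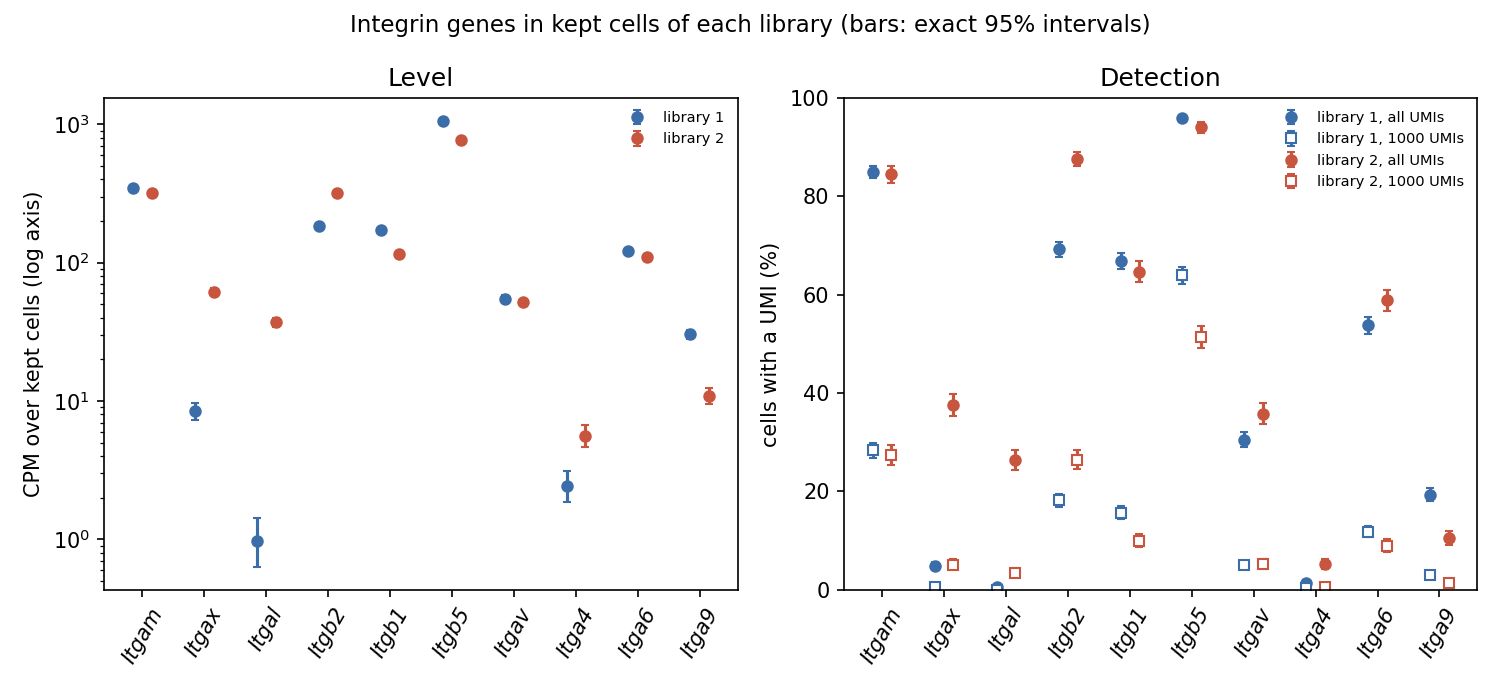
Level in CPM (left, log axis) and share of cells with a UMI (right, percent; filled circles for all UMIs, open squares for cells thinned to 1000 UMIs) of the 10 integrin genes in kept cells of library 1 (blue) and library 2 (red), with exact 95% intervals. Itgal (0.970 and 37.1 CPM) and Itgax (8.42 and 61.8 CPM) are the most separated pairs, and Itgam and Itgav lie closest together.

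The olfactory sensory neurons in the same matrix served as a background, since neurons are not known to express beta-2 integrins. In library 2 the neuron-like cluster had 37 cells, whose median depth was 11227 UMIs against 9783 over all kept cells. None of these cells held a UMI of Itgam, Itgax, Itgb2, Itgb5, Itgav or Itga9, which allows up to 6.35 CPM of each and up to 8.11% of cells. Itgal had 1 UMI there (2.12 CPM, 2.70% of cells), against 37.1 CPM and 26.3% of cells in library 2. Itgb1, a widely expressed gene, had 15 UMIs (31.8 CPM). Itga4 had 4 UMIs in 3 of the 37 cells (8.47 CPM, 8.11%), which is no lower than its 5.62 CPM and 5.15% over the library. These neurons therefore do not tell Itga4 in library 2 apart from background. Itgb5, at 776 CPM over library 2, had no UMI in them. Whether the Itga4 UMIs were the neurons' own transcripts was not tested. Library 1 had only 7 such neurons, which allow up to 31.1 CPM of a gene at 0, so no close background was set for it. Its 63 epithelium-like cells held Itgam at 121 CPM (22.2% of cells) and Itgb5 at 266 CPM (55.6%), but also 3757 CPM of microglia markers, against 38.1 CPM in the library 2 neurons.

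Restricting the count to microglia-like clusters left most of these values in place. Itgax was 9.30 CPM in library 1 and 65.5 CPM in library 2, 7.04-fold apart (6.04 to 8.25), and Itgal was 0.689 and 39.0 CPM, 56.7-fold apart (33.6 to 104). Itgb2 was 186 and 332 CPM, Itgb1 172 and 115 CPM, Itgb5 1078 and 812 CPM, and Itga9 30.2 and 11.3 CPM. Itga4 moved most, to 1.08 CPM (22 UMIs) and 5.68 CPM (106 UMIs), a 5.25-fold difference (3.29 to 8.73). The shift was in library 1, where 23 of the 63 Itga4 UMIs (36.5%) lay in 53 border macrophage-like cells, 1.56% of the cells, at 47.1 CPM. Another 9 UMIs lay in the mixed cluster (22.0 CPM) and 6 in epithelium-like cells (13.7 CPM). The border macrophage-like cells, led by the border macrophage genes Mrc1, Pf4 and Ms4a7, also held 5 of the 25 Itgal UMIs of library 1 (10.2 CPM). Itgam stood at 258 CPM and Itgb5 at 819 CPM in them. The same cells held microglia markers at 10519 CPM, and the part of microglial RNA in their Itgam and Itgb5 levels was not tested. The mixed cluster held 6 more of the Itgal UMIs of library 1 (14.7 CPM). The border macrophage-like cluster held no library 2 cells, while the mixed cluster held 102, with 9 Itgal UMIs (18.05 CPM).

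Itgal and Itgax were higher in each of the 5 library 2 microglia-like clusters than in each of the 5 library 1 clusters. Clusters were made without any integrin gene, and all but cluster 14 (21 cells of library 1 and 94 of library 2) were nearly all from 1 library, so a cluster may stand for its library rather than for a kind of microglia. Itgax ran from 4.96 CPM (cluster 2) to 23.8 CPM (cluster 9) in library 1 and from 52.5 CPM (cluster 8) to 90.5 CPM (cluster 16) in library 2. Itgal ran from 0 UMIs (cluster 9, which allows up to 1.98 CPM) to 0.393 CPM (cluster 6) in library 1, and from 29.5 CPM (cluster 13) to 75.5 CPM (cluster 16) in library 2. Cluster 9 was led by Folr2, Lpl and Ccl4, and its Itgax level was the highest of library 1 while its Itga9 level, 13.9 CPM, was the lowest there. Cluster 16 was led by Cxcl9, Ccl5 and Acod1, genes of strongly activated macrophages, and cluster 8 by the interferon-induced genes Ifit3 and Rsad2.

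Within library 2, Itgam, Itgb5 and Itga6 were lowest where Itgal was highest and highest where Itgal was lowest. The low end of Itgal was a near tie. Cluster 13 (29.52 CPM, 23.48 to 36.64) and cluster 8 (30.35 CPM, 25.96 to 35.27) had overlapping intervals. In cluster 8 Itgam was 368 CPM, Itgb5 768 CPM and Itga6 122 CPM. Itgax shared only the peak of Itgal in cluster 16. It was 70.2 CPM in cluster 13, above its lowest level of 52.5 CPM in cluster 8. Cluster 16, highest in Itgax and Itgal, was lowest in Itgam (219 CPM), Itgb5 (577 CPM), Itga6 (67.9 CPM) and Itga9 (5.80 CPM). Cluster 13, led by C4b, H2-Eb1 and Apoe, was highest in Itgam (402 CPM), Itgb5 (1030 CPM), Itga6 (152 CPM) and Itgb2 (381 CPM). Across the 5 clusters of library 1, Itgam ran from 322 to 424 CPM, Itgb5 from 993 to 1226 CPM and Itga6 from 105 to 153 CPM, and for these 3 genes the ranges of the libraries overlapped. Itgav overlapped too, at 41.6 to 79.7 CPM and 48.6 to 63.3 CPM, with its peak in cluster 4, the library 1 cluster led by Gadd45b and Il1a. Ranges did not overlap for Itgb2 (174 to 225 and 314 to 381 CPM), Itgb1 (149.5 to 199 and 110 to 135 CPM), Itga9 (13.9 to 35.6 and 5.80 to 12.7 CPM) or Itga4 (0.165 to 1.58 and 2.28 to 6.96 CPM). The intervals of Itga9 in cluster 9 and in the library 2 clusters overlap, as do those of Itga4 in cluster 9 and in the library 2 clusters. The Itga4 interval of cluster 14 in library 2 (0.47 to 6.65 CPM, 3 UMIs) overlaps those of all the library 1 clusters. The Itgb1 intervals of cluster 9 (130.6 to 170.3 CPM) and of cluster 14 in library 2 (116.0 to 156.5 CPM) overlap as well. Dividing cells of library 2, cluster 14, had 64.5 CPM of Itgal and 245 CPM of Itgam. The 21 library 1 cells of that cluster had 10.2 CPM of Itgal (3 UMIs) and 214 CPM of Itgam.

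**Figure D2:**
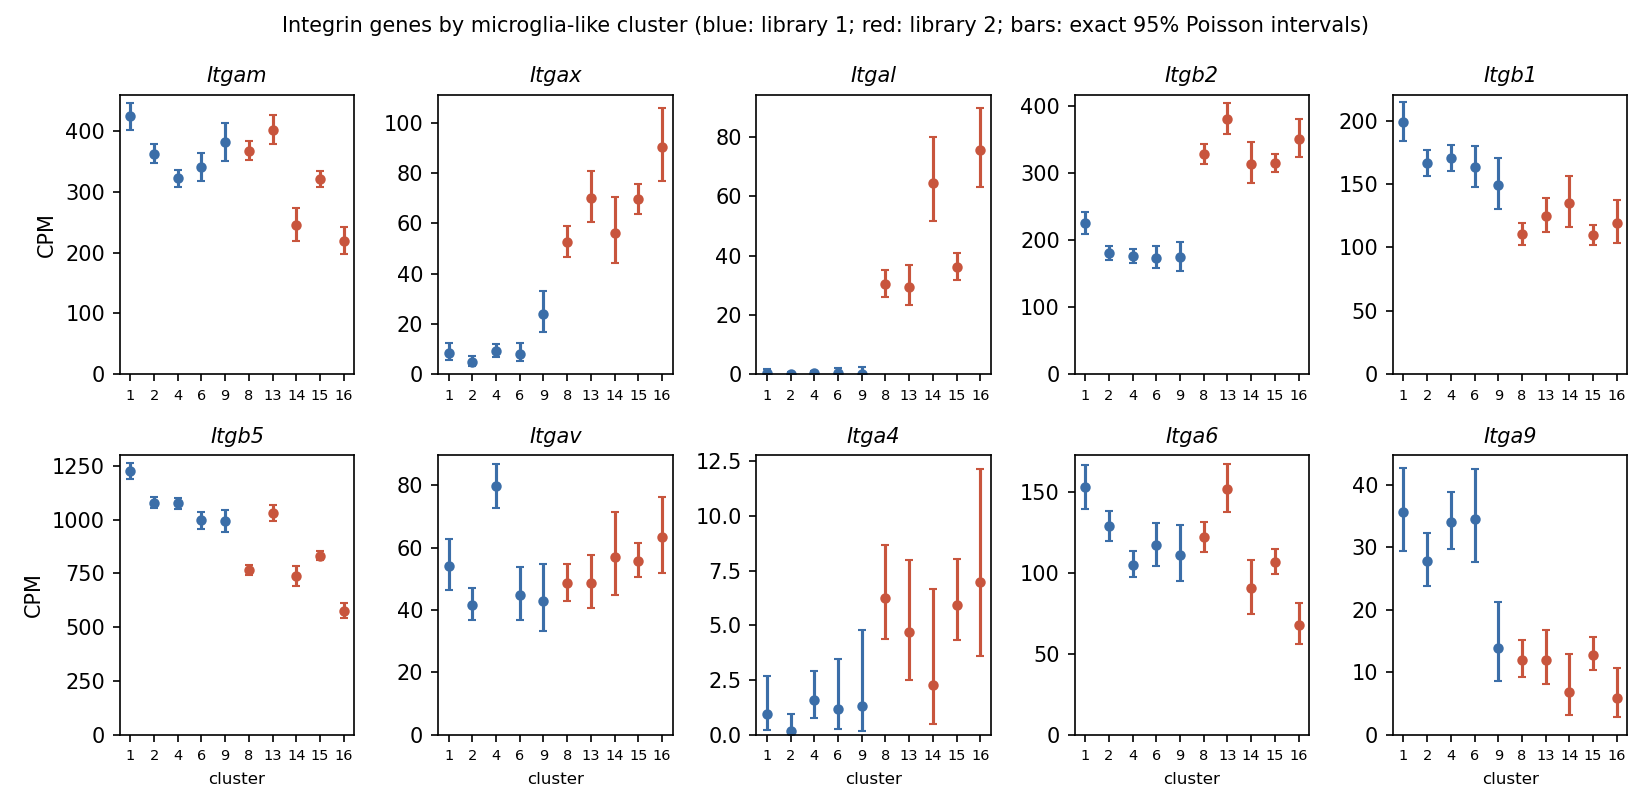
CPM of each integrin gene in the microglia-like clusters of at least 50 cells in a library (horizontal axis: cluster number; blue, library 1; red, library 2), with exact 95% Poisson intervals and axes that start at 0. Itgax, Itgal and Itgb2 lie higher in each library 2 cluster than in each library 1 cluster, and Itgam, Itgb5 and Itga6 are at their lowest in cluster 16.

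A few library 1 cells fell in the clusters that were mostly of library 2, 48 in all, none with a barcode sequence found in both libraries. Their Itgal level was 14.1 CPM (6.45 to 26.8, 9 UMIs), against 0.689 CPM over all microglia-like cells of library 1, so 9 of the 14 Itgal UMIs of that class came from these cells. Their Itgax level was 25.1 CPM (14.3 to 40.7, 16 UMIs), Itgb2 224 CPM (189 to 264) and Itga9 7.83 CPM (2.54 to 18.3). Itgax and Itgal were thus between the levels of the 2 libraries, on small counts. Clusters 8, 13, 14, 15 and 16 held 17, 1, 21, 7 and 2 of the 48 cells. The 21 cells of the dividing cluster 14 held 3 of the 9 Itgal UMIs.

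The make-up of the beta-2 family followed from these levels. Of the UMIs of Itgam, Itgax and Itgal together, Itgam gave 97.4% (97.0 to 97.7) in library 1 and 76.3% (75.4 to 77.2) in library 2. Itgax gave 2.36% and 14.8%, and Itgal 0.271% and 8.90%. In library 2 the Itgal share ran from 5.88% in cluster 13 to 19.6% in cluster 16, and in the dividing cluster 14 it was 17.6%. Shares of UMIs depend on how well each transcript is captured, which was not measured, so they are compared between libraries and not read as protein ratios. Among the alpha partners of Itgb1, Itga6 gave 58.1% and 61.7%, Itgav 26.3% and 29.0%, Itga9 14.5% and 6.12% and Itga4 1.17% and 3.16%, and the shift was largest for Itga9. Among the 3 beta genes, Itgb2 went from 13% in library 1 to 26.3% in library 2 and Itgb5 from 74.7% to 64.2%.

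**Figure D3:**
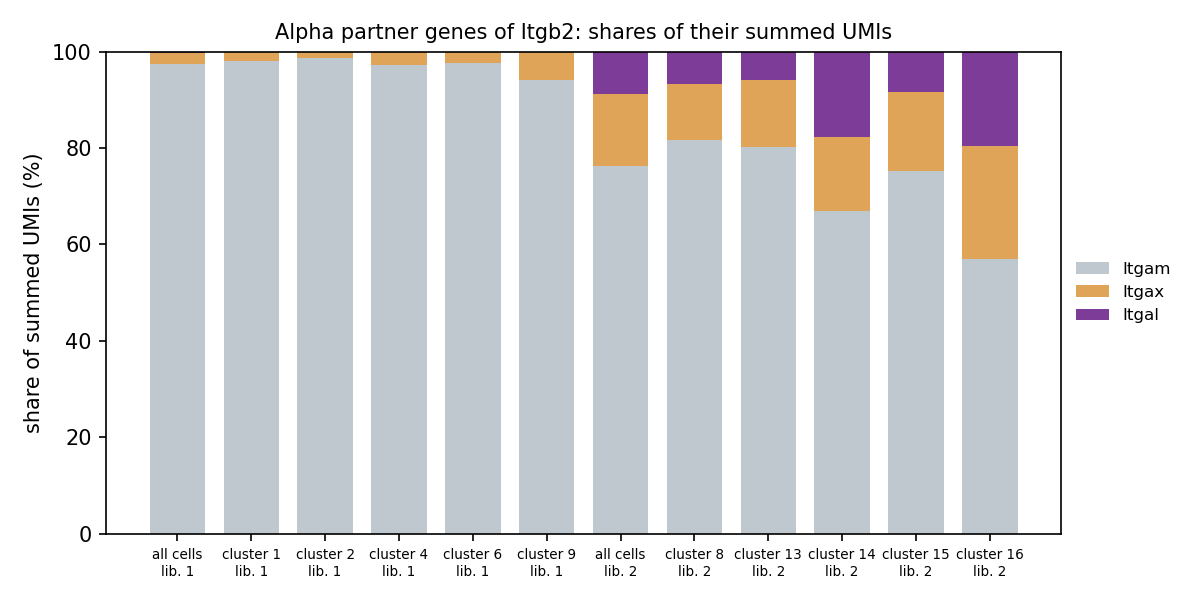
Shares (percent) of the summed UMIs of Itgam, Itgax and Itgal in all kept cells and in each microglia-like cluster, library 1 on the left and library 2 on the right. Itgam gives 97.4% over library 1 and 76.3% over library 2, and its share is lowest in cluster 16.

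Single cells held the partner chains together about as often as their separate shares predict. At 1000 UMIs, Itgam and Itgb2 were both seen in 5.73% of library 1 cells, against a product of the single shares of 5.16%, and in 7.24% of library 2 cells, against 7.26%. Itgav and Itgb5 were both seen in 3.1% against 3.25% and in 2.78% against 2.69%. In each of these 4 cases the product lay within the exact 95% interval of the observed share. On all UMIs, 481 of the 506 Itgal-positive cells of library 2 (95.1%) and 690 of the 722 Itgax-positive cells (95.6%) also held Itgb2, against 87.7% of all cells, and 234 of the 506 (46.3%) held Itgax, against 37.6%. Cells with more UMIs hold more of every gene, and at 1000 UMIs only 1 cell held both Itgal and Itgax. A cell held a median of 4 of the 10 genes in library 1 and 5 in library 2 on all UMIs, and 1 in both at 1000 UMIs.

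Within each library the integrins were also set against 4 gene lists by ranking the microglia-like cells on the share of their UMIs from each list and splitting them into 3 groups of like size, called the lowest, middle and highest. This view was chosen after the values had been seen, and the groups are ranges of a score, not cell types; 476 to 1427 cells of library 1 and 260 to 728 of library 2 lay within 10% of a boundary. From the lowest to the highest group by microglia markers, Itgam went from 323 to 401 CPM in library 1 and from 269 to 410 CPM in library 2. Itgb5 went from 970 to 1176 CPM and from 626 to 1023 CPM, and Itga6 from 108 to 144 CPM and from 83.7 to 144 CPM. Itgax went the other way in library 1, from 14.6 to 4.81 CPM, and was 62.4, 68.1 and 66.2 CPM across the groups of library 2. Itgal went from 51.3 through 35.2 to 28.4 CPM in library 2.

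Groups by MHC class II, the antigen-presenting genes, separated Itgax and did not separate Itgam. Itgax was 5.65, 8.01 and 13.8 CPM across the groups of library 1 and 55.6, 65.1 and 75.4 CPM in library 2, while Itgam was 360 and 352 CPM in the outer groups of library 1 and 338 and 330 CPM in those of library 2. Itgax was not alone in this. From the lowest to the highest group, Itgb5 went from 1028 to 1104 CPM in library 1 and from 745 to 874 CPM in library 2. Itga6 went from 122 to 98.9 CPM in library 2, and Itgav from 49.8 to 64.6 CPM in library 1. The highest MHC class II group of library 1 had a median list share of 0.121%, below the 0.340% of the lowest group of library 2, and the Itgax levels of those groups were 13.8 and 55.6 CPM. By interferon-response genes, Itgal in library 2 was 27.1, 33.2 and 54.6 CPM, and Itgb5 was 880, 870 and 701 CPM. Itgax was 63.0, 64.4 and 68.6 CPM across the same groups, within the spread of its intervals. Interferon groups of library 1 were not used because many of its cells had no UMI from that list.

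**Figure D4:**
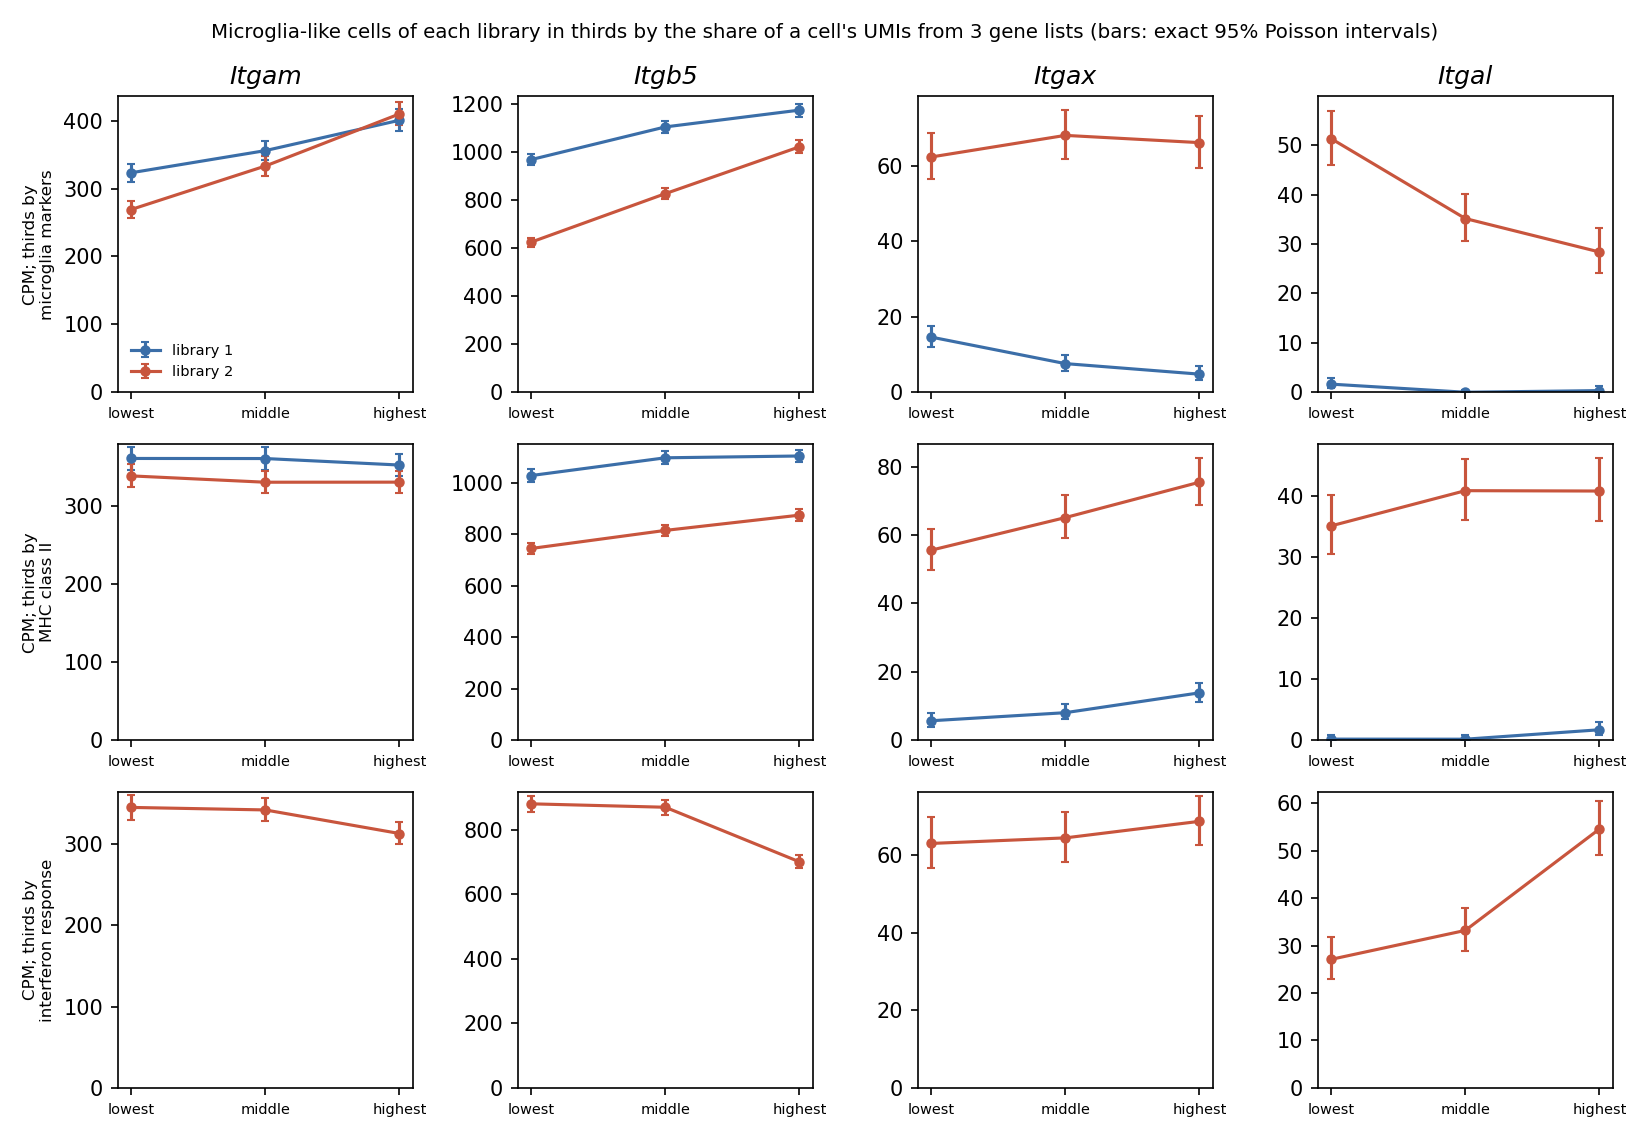
CPM of Itgam, Itgb5, Itgax and Itgal (columns) in microglia-like cells of library 1 (blue) and library 2 (red), split into 3 ranked groups by the share of a cell's UMIs from microglia markers, MHC class II or interferon-response genes (rows; library 2 only in the last), with exact 95% Poisson intervals. Itgb5 and Itgam are higher in the groups with more microglia markers, and Itgal of library 2 goes from 27.1 to 54.6 CPM across the interferon groups.

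Several technical and state measures moved with the libraries. Genes of dissociation and early response made 64656 CPM of library 1 and 23849 of library 2, MHC class II genes to 1151 and 15698 CPM, and interferon-response genes to 617 and 4220 CPM. Median mitochondrial shares were 1.54% and 3.74%, and red blood cell markers summed to 323 and 0.641 CPM. The 6 monocyte markers summed to 11.8 and 75.3 CPM, nearly all from Plac8 (8.0 and 70.9 CPM), while Ccr2 stood at 2.13 and 0.592 CPM and Ly6c2 at 0.155 and 0.493 CPM; 7 neutrophil markers summed to 0.155 and 0.197 CPM. The part of these measures in the integrin differences was not tested. Split in the same way by early genes, Itgax was 13.5, 7.28 and 7.36 CPM in library 1 and 70.9, 64.3 and 61.0 CPM in library 2. Each group of library 2 lay above each group of library 1. The groups are not matched between the libraries. Their median early-gene shares were 3.95%, 6.16% and 8.86% in library 1 and 1.14%, 2.44% and 3.82% in library 2. Itgal was 49.4, 35.0 and 32.5 CPM across the early-gene groups of library 2.

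The other 16 integrin subunits were scarce and made 31.5 CPM of library 1 and 23.6 of library 2. Among the 8 with at least 20 UMIs, 3 were at least 2-fold higher in library 2 (Itga1, Itga10, Itgb7) and 2 lower (Itga5, Itgb3), against 14.2% and 8.37% of all genes tested, with a median log2 ratio of 0.03. Itga1 had only 10 and 19 UMIs, with overlapping intervals, and Itga10 only 6 and 19. Itga5, the fibronectin receptor chain, stood at 14.5 and 7.0 CPM, and Itgb3, the other main partner of alpha-v, at 9.94 and 3.50 CPM. Itgb7, a partner of alpha-4 in lymphocyte homing, stood at 1.24 and 5.72 CPM. Itgae, the partner of beta-7 on mucosal T cells, stood at 1.98 and 1.58 CPM and Itga2b, the platelet chain, at 1.09 and 1.73 CPM.

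For the intracellular machinery that switches integrins on, the count of lower genes under the 2-fold rule was near background. Of 33 activator and adaptor genes, 32 had enough UMIs, 1 (Sharpin) was at least 2-fold higher in library 2 and 3 (Vcl, Pxn and Actn1) were lower, below the background of 14.2% and near that of 8.37%. The median log2 ratio of the 32 genes was -0.09. Rap1b, the small GTPase that triggers talin recruitment, stood at 766 CPM in library 1 and 388 CPM in library 2, and Apbb1ip, the Rap1 effector RIAM, at 346 and 222 CPM. The Src-family kinase Lyn stood at 495 and 384 CPM, and the adaptor Fyb at 331 and 447 CPM. Actn1, which links integrins to actin, stood at 22.1 and 5.52 CPM, and Sharpin, an inhibitor of integrin activation, at 23.8 and 54.0 CPM. Talin itself (Tln1) stood at 147 and 153 CPM and kindlin-3 (Fermt3) at 234 and 183 CPM; both fall outside the rule for named genes.

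Of 31 ligand genes, 20 had enough UMIs, 7 were at least 2-fold higher in library 2 (Vcam1, Fn1, Vtn, Thbs1, C3, Emilin1 and Col1a1) and 2 lower (Jam2, Jam3), against 14.2% and 8.37% of all genes tested, with a median log2 ratio of -0.02. Vcam1, a ligand of alpha-4 and alpha-9 integrins, stood at 35.2 CPM in library 1 and 181 CPM in library 2. C3, whose cleavage product iC3b is bound by the Itgam and Itgax receptors, stood at 1.13 and 69.6 CPM. Icam1, the main ligand of the Itgal receptor, stood at 365 and 255 CPM, the opposite order to Itgal. F11r, the junctional adhesion molecule bound by LFA-1, stood at 483 and 336 CPM and Tgfb1, whose latent form is bound by alpha-v integrins, at 327 and 215 CPM. Col1a1 stood at 2.25 and 141 CPM and is also one of the markers of osteoblasts and fibroblasts, a list that summed to 19.4 and 222 CPM.

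Across 17 groups of at least 50 cells (a cluster in a library), the log2 levels of 9779 genes were compared with each integrin gene by Pearson's r. The groups share 2 libraries and their depth, so r is a description. Not all are microglia-like: mixed, epithelium-like, border macrophage-like and ensheathing-glia-like groups are among them. The epithelium-like group of library 1 held Itgam at 121 CPM and Itgb5 at 266 CPM. The part of a group's microglial RNA content in r was not tested. Among the most similar genes were Csf1r (0.97) and Laptm5 (0.96) for Itgb5, and Ifngr1 (0.97) and Csf1r (0.96) for Itgam; the 2 integrins had r = 0.94 with each other. Itgb2 was nearest to Fcgr1 (0.97) and Ctss (0.96), Itgax to Tspan32 (0.96), H2-K1 (0.96) and Lgals3bp (0.95), and Itgal to Slc2a6 (0.96), Ms4a4c (0.96) and Serpina3f (0.95). Itgax had r = 0.87 with Itgal, 0.82 with Itgb2, 0.06 with its neighbour Itgam and -0.81 with Itga9. For Itga6 the nearest genes were Gm5086 (0.93), Lrp1 (0.92) and Calhm2 (0.90), for Itga9 Lsm14b (0.95), 2310033P09Rik (0.93) and Ubxn4 (0.93), and for Itgb1 S1pr1 (0.92), Rap1a (0.87) and Fam107b (0.86). Itga4 (4930402H24Rik 0.90, Trps1 0.88, Lrp6 0.83) and Itgav (Wdr1 0.84, Tgfbr2 0.83, Lrch1 0.83) had the least close neighbours.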

How the data were processed

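Single-cell RNA was measured in 2 pooled samples. The deposited values are raw counts of UMIs for each gene in each barcode, from Cell Ranger 3.1.0, per the file headers. Besides it, bcl2fastq and UMI-tools are listed in the submitters' processing notes. For the aligner, genome build, use of strand and any equalising of depth, the details are not given in the sources. The 10 genes, the other lists and the rule for named genes (of each list, the 5 highest by CPM and the 3 with the largest log2 ratio after adding 10 CPM; for each integrin, the 3 most similar genes) were chosen with earlier results of these data known. Values of some genes under that rule are not reported here.

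From these counts, UMIs were summed over kept cells and scaled to CPM (Python 3.11.15, NumPy 2.4.6, SciPy 1.17.1, pandas 2.3.3). Intervals are exact Poisson or binomial at 95%, a count of 0 is given the level of 3 counts, and ratios used no added count unless stated. Cells were clustered with Scanpy 1.11.5 on 2000 variable genes without 31 integrin genes, 30 principal components, 15 neighbours and Leiden resolution 1. A cluster was named from 3 markers among its 50 highest folds, or as microglia-like where 5 of 7 microglia markers reached 100 CPM, provided that no other list had more markers among its 10 highest folds. By this last condition 490 cells of library 1 stayed unnamed. That naming rule was written after a first look at these cells. No doublet caller was run, and doublets may remain. As a group, the 113 ensheathing-glia-like cells held microglia markers at 13769 CPM in library 1 and 6752 CPM in library 2. How many of these cells held them was not counted. Alternatives covered the cell filter, cells used, scaling, pseudocount, fold, thinning depth and resolution.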

Additional observations from a re-analysis of the deposited data

How the results depend on the processing

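Each of the 10 genes kept the direction of its log2 ratio under all 10 alternatives to the cells, totals or pseudocount. Itgax ranged from 1.92 to 2.74, Itgal from 1.95 to 4.27, Itga4 from 0.24 to 0.94 and Itga9 from -1.40 to -0.91, with the ends far from 0 set by a pseudocount of 1 CPM. The count of genes at least 2-fold higher in library 2 was 3, except 2 when the CPM of single cells were averaged, which left out Itga4, and 4 at 1.5-fold. The count of lower genes was 1, except 2 at 1.5-fold. The Itgal share of the beta-2 partners in library 1 was 0.271%, and 0.158% without the 5% of cells with the most UMIs. Itgax and Itgal ranges of the libraries did not overlap at resolution 0.5 or 2. No paired analysis was possible because each group is 1 pool and the suffixes could not be mapped to groups. Shares of cells rose with thinning depth, as their construction requires. Sparse counts limit Itga4 in both libraries and Itgal in library 1, and counting intervals leave out the variation between mice.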
